A study of Mus musculus with 6 samples.

Results

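The estrogen receptor alpha (ERα) binding sites called in uteri of vehicle-treated AF-2 mutant mice were compared with those called in vehicle-treated wild-type littermates. The members are the 8739 peaks of the 2 vehicle lists, 5027 from the mutant and 3712 from the wild type, of 154923 peaks in the 6 lists of the series. Peaks of the genotypes with an overlap of 1 bp or more were classed as shared, and the rest as mutant only or wild type only. Chromatin immunoprecipitation with sequencing (ChIP-seq) was done with the ERα antibody SC-542 on uteri of ovariectomized C57BL/6J females aged 12 weeks. The genotypes were AF2ERKI, labelled as the ERalpha AF-2 mutant, and WT. Vehicle mice received 50 µl of DMSO by intraperitoneal injection. The ligand groups received fulvestrant (ICI182780, here ICI) or tamoxifen at 2 mg/kg in DMSO, and uteri were taken 1 h after injection. Each library came from the pooled uteri of 6 mice, with 1 library per genotype and treatment. Titles of all groups, vehicle included, hold the unexplained code E1h, so an agent common to all groups is possible.

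ERα is a nuclear receptor that binds DNA at estrogen response elements, or indirectly through other transcription factors, and regulates growth and differentiation of the uterus. Activation function 1 lies in its N-terminal part. Activation function 2 (AF-2) lies in the ligand-binding domain, where agonists fold the last helix into a surface that recruits coactivators. Ovariectomy removes the main source of estrogen, so binding after vehicle is commonly taken as that of receptor with little hormone. Whole uterus contains epithelial, stromal and muscle cells. In such tissue, binding in fewer cells and weaker binding per cell cannot be told apart. The lists hold positions and no gene activity, so the labelled tissue was not checked against markers.

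Every comparison here is between single libraries, no difference between genotypes was tested, and read depth is unknown. Every peak is 200 bp wide and has no height, so a site missing from a list lay under the authors' threshold in that library, which does not show that ERα was absent. Percentages carry exact (Clopper-Pearson) 95% intervals, which cover counting error only. Coordinates are in mm9 and count from 1. An annotation or sequence of mm9 was not used here, so sites are given by position without gene names or bases.

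Receptor binding without antagonist was placed mostly at different called sites in the genotypes. The vehicle lists together marked 7646 distinct sites. Of these, 3934 (51.5%) were called in the mutant only, 2619 (34.3%) in the wild type only and 1093 (14.3%) in both. By list, 29.4% of wild-type peaks (28.0 to 30.9) and 21.7% of mutant peaks (20.6 to 22.9) were shared. In the longer ligand lists, 65.4% of mutant tamoxifen peaks (65.0 to 65.9) overlapped a wild-type tamoxifen peak. For mutant ICI peaks and wild-type ICI, the share was 42.0% (41.6 to 42.5). No vehicle peak overlapped more than 1 peak of the other vehicle list, so the shared class consists of 1093 pairs. The classes follow from the overlap rule, and their sizes also depend on how deeply each library was sequenced and on how many peaks each list holds.

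Where both genotypes had a peak, the peaks were centred closely. The median distance between the midpoints of a pair was 19 bp, with quartiles of 8 and 41 bp. Midpoints lay within 50 bp in 80.9% of pairs (78.4 to 83.2) and within 100 bp in 94.4% (92.9 to 95.7), and 25 pairs had identical positions. The wild-type midpoint lay at the higher coordinate in 530 pairs and at the lower in 538. Hence few shared sites depended on a marginal overlap, and neither genotype's peaks were displaced in 1 direction.

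**Figure D1:**
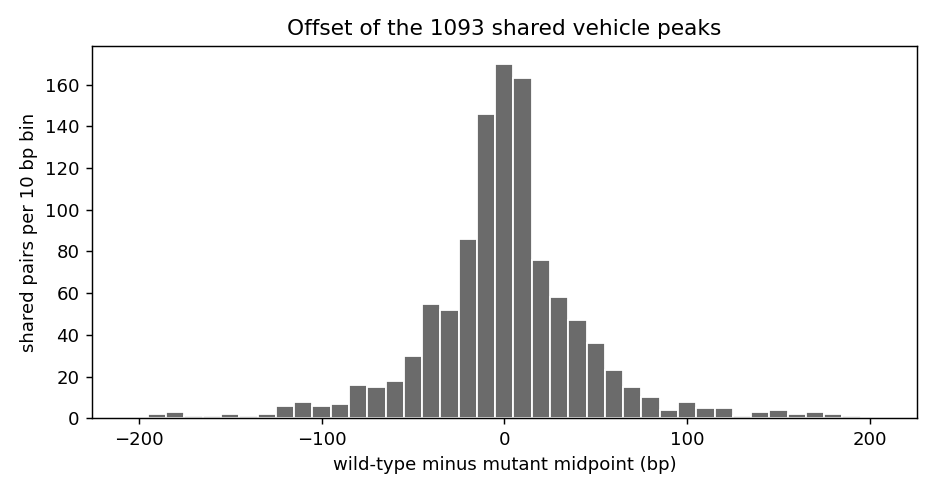
Histogram of the distance between midpoints (wild type minus mutant, in bp, 10 bp bins) for the 1093 shared pairs of vehicle peaks; bar height is the number of pairs. The pairs are centred near 0 bp, and the median distance regardless of direction is 19 bp.

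Unshared peaks were rarely near misses. Of mutant-only peaks, 0.915% (0.642 to 1.26) had a wild-type vehicle midpoint within 500 bp and 2.06% (1.64 to 2.55) within 1000 bp. For wild-type-only peaks the shares were 1.41% (0.997 to 1.94) and 2.67% (2.09 to 3.36). The median distance to the nearest vehicle peak of the other genotype was 141020 bp for mutant-only and 119227 bp for wild-type-only peaks. Even within 100 kb, 41.3% of mutant-only peaks (39.8 to 42.9) and 45.8% of wild-type-only peaks (43.9 to 47.7) had such a neighbour.

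The closest unshared pairs lay side by side. On chromosome 2 the mutant peak at 172374910 to 172375109 had its midpoint 208 bp from that of the wild-type peak at 172375118 to 172375317. All 4 ligand lists held the wild-type peak, and 0 held the mutant peak. On chromosome 4 the mutant peak at 129547952 to 129548151 and the wild-type peak at 129548164 to 129548363, 212 bp apart, divided in the same way. On chromosome 8 all 4 ligand lists held the mutant peak at 90901141 to 90901340, whereas the wild-type peak at 90900932 to 90901131, 209 bp away, was called only with wild-type ICI.

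The ligand lists were not used to set the classes and come from other libraries, so they give a separate view of the same sites. Shared sites are described by the wild-type peak of each pair. The ligand lists differ in length, with 45837 peaks for mutant ICI, 36538 for mutant tamoxifen, 26482 for wild-type ICI and 37327 for wild-type tamoxifen. Values are therefore compared between classes within a list.

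Mutant-only sites were called least often in all 4 ligand lists. They were called in 55.8% of cases with mutant ICI (54.2 to 57.3), in 56.5% with mutant tamoxifen (54.9 to 58.1), in 30.4% with wild-type ICI (28.97 to 31.9) and in 36.2% with wild-type tamoxifen (34.7 to 37.8). On each of the 20 chromosomes (1 to 19 and X) and in each ligand list, this share was below that of the shared sites. The chromosomes are parts of the same libraries, so they are not replicates. Over all mutant vehicle peaks the shares were 61.2%, 62.0%, 33.7% and 43.9% in the same order of lists. Over all wild-type vehicle peaks they were 77.4%, 76.2%, 67.4% and 78.9%, so the whole lists differed as well.

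Wild-type-only sites were called in most cases in each of the 4 ligand lists. Mutant ICI held 75.8% of them (74.1 to 77.5) and mutant tamoxifen 73.8% (72.1 to 75.5). Wild-type ICI held 76.2% (74.5 to 77.8) and wild-type tamoxifen 82.0% (80.5 to 83.4). At least 1 mutant ligand list held 79.8% of wild-type-only sites (78.2 to 81.3), close to the 82.1% of all wild-type vehicle peaks (80.8 to 83.3). At least 1 wild-type ligand list held 44.3% of mutant-only sites (42.75 to 45.9), against 50.96% of all mutant vehicle peaks (49.6 to 52.4).

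Shared sites were called least often in the wild-type ICI list, which is also the shortest of the ligand lists. They were called in 81.2% of cases with mutant ICI (78.8 to 83.5), in 82.0% with mutant tamoxifen (79.6 to 84.2) and in 71.6% with wild-type tamoxifen (68.9 to 74.3), but in 46.2% with wild-type ICI (43.2 to 49.2). In the wild-type ICI list, sites occupied under vehicle in both genotypes were therefore called less often than sites occupied in the wild type only (76.2%). That order held on 20 of 20 chromosomes, where shared sites ranged from 33.3% to 61.5% and wild-type-only sites from 64.4% to 82.9%. With wild-type tamoxifen the same order held on 19 chromosomes. With the mutant lists the order was mostly the other way, shared sites being higher on 16 chromosomes for ICI and on 17 for tamoxifen. These tallies split the same single libraries and are not independent replication.

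**Figure D2:**
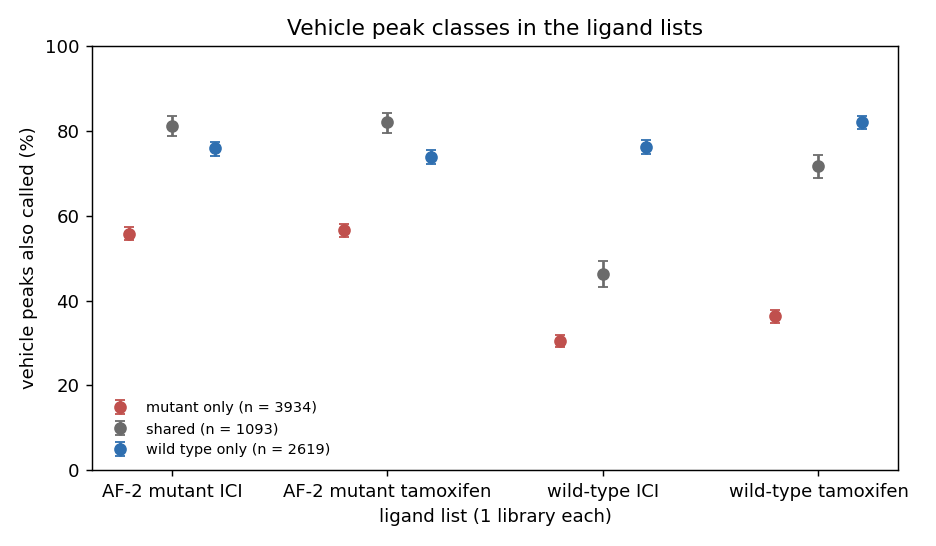
Percentage of mutant-only, shared and wild-type-only vehicle peaks (y axis) that overlap a peak of each ligand list (x axis, 1 library each), with exact 95% intervals for counting error. In the wild-type ICI list the shared peaks lie at 46.2% and the wild-type-only peaks at 76.2%, whereas in the mutant ICI list they lie at 81.2% and 75.8%.

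Within the wild type, the gap between ligands also differed by class. Of shared sites called with wild-type tamoxifen, 59.9% (56.4 to 63.4) were also called with wild-type ICI. Of wild-type-only sites called with wild-type tamoxifen, 88.9% (87.5 to 90.2) were, and of mutant-only sites 61.6% (59.1 to 64.2). Over all wild-type tamoxifen peaks the share was 51.2% (50.7 to 51.7). Of the classes, wild-type-only sites thus lay furthest from the share of the whole list. In the mutant, the shares of tamoxifen-called sites also called with ICI were closer together, at 92.3% for shared (90.4 to 94.0), 94.7% for wild-type-only (93.6 to 95.6) and 83.6% for mutant-only sites (82.0 to 85.1), and 85.6% over all mutant tamoxifen peaks (85.2 to 85.9). Of sites called with mutant ICI, wild-type ICI held 52.9% of shared, 90.1% of wild-type-only and 45.9% of mutant-only sites. Over all mutant ICI peaks it held 42.0%, so wild-type-only sites were again furthest from the whole list.

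The closer the peaks of a shared pair, the less often the wild-type ICI list held the site. Among the 361 pairs at most 10 bp apart the site was called with wild-type ICI in 33.8% (28.9 to 38.9), among the 523 pairs 11 to 50 bp apart in 50.1% (45.7 to 54.5), and among the 209 pairs over 50 bp apart in 57.9% (50.9 to 64.7). Mutant ICI ran in the opposite order, with 84.2% (80.0 to 87.8), 81.6% (78.1 to 84.9) and 75.1% (68.7 to 80.8). Wild-type tamoxifen had the direction of wild-type ICI, with 66.8% (61.6 to 71.6), 73.8% (69.8 to 77.5) and 74.6% (68.2 to 80.4). With mutant ICI and with wild-type tamoxifen the intervals of the groups overlapped. With wild-type ICI the interval of the closest pairs lay below the others. Mutant tamoxifen ranged from 78.9% to 82.8% over these groups. The bounds of 10 and 50 bp were chosen with earlier results known.

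Counting ligand lists per site sets the classes apart in another way. All 4 ligand lists held 63.9% of wild-type-only sites (62.0 to 65.7), 40.3% of shared sites (37.3 to 43.2) and 20.2% of mutant-only sites (18.99 to 21.5). Of the whole vehicle lists they held 56.9% of wild-type peaks (55.3 to 58.5) and 24.5% of mutant peaks (23.3 to 25.7). The distance between wild-type-only and shared sites came largely from wild-type ICI. A further 24.1% of shared sites (21.6 to 26.7) were in every ligand list except that one, against 4.85% of wild-type-only (4.06 to 5.74) and 9.56% of mutant-only sites (8.66 to 10.5). Over the whole vehicle lists this was so for 10.5% of wild-type peaks (9.54 to 11.5) and 12.7% of mutant peaks (11.8 to 13.7). In the 3 remaining ligand lists the shares became 68.7% for wild-type-only (66.9 to 70.5), 64.3% for shared (61.4 to 67.2) and 29.8% for mutant-only sites (28.4 to 31.3). They were 67.4% over all wild-type (65.9 to 68.9) and 37.2% over all mutant vehicle peaks (35.9 to 38.6).

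At the other end, 30.5% of mutant-only sites (29.0 to 31.9), 1198 in number, were in 0 of the 4 ligand lists. This was so for 11.6% of wild-type-only sites (10.4 to 12.9) and 9.15% of shared sites (7.51 to 11.02). Over the whole vehicle lists it was so for 25.9% of mutant peaks (24.7 to 27.1) and 10.9% of wild-type peaks (9.90 to 11.9). A minority of the sites in 0 ligand lists had a ligand peak nearby, and no expected share was computed for this. A ligand midpoint lay within 1000 bp of 29.7% of such mutant-only sites (27.1 to 32.4), 38.8% of such wild-type-only sites (33.3 to 44.5) and 42.0% of such shared sites (32.2 to 52.3).

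**Figure D3:**
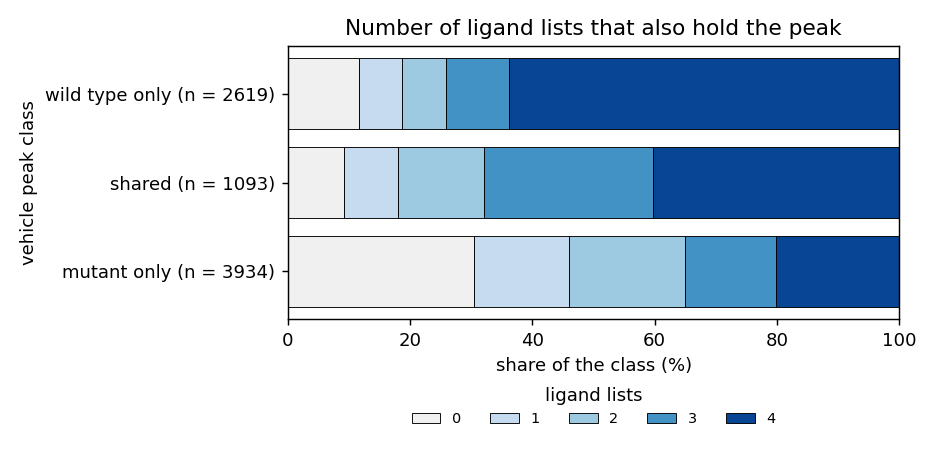
Stacked bars giving the share of each vehicle class (x axis, percent) that was also called in 0, 1, 2, 3 or 4 ligand lists (white to dark blue). The darkest segment is 63.9% for wild-type-only, 40.3% for shared and 20.2% for mutant-only peaks, and the white segment is largest for mutant-only peaks at 30.5%.

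Sites whose calls followed the genotype in all libraries were more numerous in the mutant, where 2 of the 3 lists are also longer. The mutant lists hold 5027 against 3712 peaks with vehicle, 45837 against 26482 with ICI and 36538 against 37327 with tamoxifen. All 3 mutant lists and none of the 3 wild-type lists held 539 sites, which are 13.7% of the mutant-only class (12.6 to 14.8), against 12.8% of all mutant vehicle peaks with both mutant ligands and no wild-type ligand (11.9 to 13.8). All 3 wild-type lists and none of the mutant lists held 102 sites, 3.89% of the wild-type-only class (3.19 to 4.71), against 2.94% of all wild-type vehicle peaks with the reverse ligand pattern (2.42 to 3.53). Both class shares are near those of the whole lists. In addition, 106 shared sites (9.70%, 8.01 to 11.6) were called with both ligands in the mutant and with neither in the wild type, against 7 (0.640%) with the reverse pattern. Over all wild-type vehicle peaks these patterns held for 3.45% (2.88 to 4.09) and 2.94%. Over all mutant vehicle peaks they held for 12.8% and 0.597%. The wild-type ICI list is the shortest of the ligand lists. Leaving it out, 6.41% of wild-type-only sites were called with wild-type tamoxifen and in no mutant list, and 17.5% of mutant-only sites with both mutant ligands and not with wild-type tamoxifen. These criteria are unlike, since the first needs absence from both mutant ligand lists and the second from wild-type tamoxifen only. The 2 values therefore cannot be compared.

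Vehicle and ligand peaks at the same site were nearly concentric, most closely for wild-type-only sites. Their median midpoint distance to the overlapping ligand peak was 12 bp with wild-type tamoxifen, 13 bp with either mutant list and 17 bp with wild-type ICI. For mutant-only sites the medians were 30 bp with each mutant list, 29 bp with wild-type tamoxifen and 47 bp with wild-type ICI. Shared sites lay between, at 18 and 17 bp with mutant ICI and tamoxifen, 21 bp with wild-type tamoxifen and 37 bp with wild-type ICI.

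Binding was sparse along the chromosomes in both genotypes. The median distance from a peak to the next peak of its own list was 87289 bp in the mutant and 143900 bp in the wild type, and no peaks of a list lay closer than 261 bp in the mutant and 342 bp in the wild type. Another peak within 10 kb was found for 11.6% of mutant peaks (10.8 to 12.6) and 6.95% of wild-type peaks (6.15 to 7.82). A longer list is more tightly spaced by itself. With the mutant list thinned to the wild-type length the expected share was 8.84%, a value without an interval of its own. Neighbouring peaks are counted together, as the 258 wild-type peaks with a neighbour lie in 126 runs. The intervals treat peaks as independent and are therefore too narrow here, and the difference in spacing was not tested. At 1000 bp the shares were 3.28% in the mutant (2.81 to 3.81) and 1.43% in the wild type (1.07 to 1.86).

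Within each list the intervals of the classes overlapped, at 10 kb and at 1000 bp. In the mutant, 12.2% of mutant-only peaks (11.2 to 13.3) and 9.52% of shared peaks (7.84 to 11.4) had another mutant peak within 10 kb. In the wild type, 7.33% of wild-type-only peaks (6.36 to 8.40) and 6.04% of shared peaks (4.70 to 7.62) had one. At 1000 bp the wild-type order was the other way, with 1.11% of wild-type-only (0.743 to 1.59) and 2.20% of shared peaks (1.41 to 3.25), and in the mutant the shares were 3.33% of mutant-only (2.79 to 3.94) and 3.11% of shared peaks (2.16 to 4.32).

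Peaks were joined to runs where neighbouring midpoints lay at most 10 kb apart. The mutant had 278 runs with 2 or more peaks, of which 186 held no shared peak, and the wild type had 126, of which 71 held none. The longest mutant run had 4 peaks on chromosome 11 at 35076110 to 35092131, with gaps of 8977, 1893 and 4952 bp. The wild type had 1 peak in this span, at the shared end of the run. A mutant run of 3 peaks on chromosome 1 at 74002092 to 74019566 met no wild-type vehicle peak. All 3 of its peaks were called with both mutant ligands, 2 with wild-type tamoxifen and 0 with wild-type ICI. A second run of 3 mutant peaks on that chromosome, at 74841092 to 74853897, had 1 shared peak, and all 3 were called with mutant ICI, mutant tamoxifen and wild-type ICI.

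In the wild type the longest runs had 3 peaks. The tightest of the named runs, on chromosome 5 at 120047140 to 120048533, spanned 1394 bp with 2 shared peaks. The run on chromosome 8 at 93378710 to 93386714 held no mutant vehicle peak, and all 3 of its peaks were called with wild-type ICI. The run on chromosome 2 at 27032280 to 27045746 had 1 shared peak, and all 3 were called with mutant ICI and with wild-type tamoxifen.

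**Figure D4:**
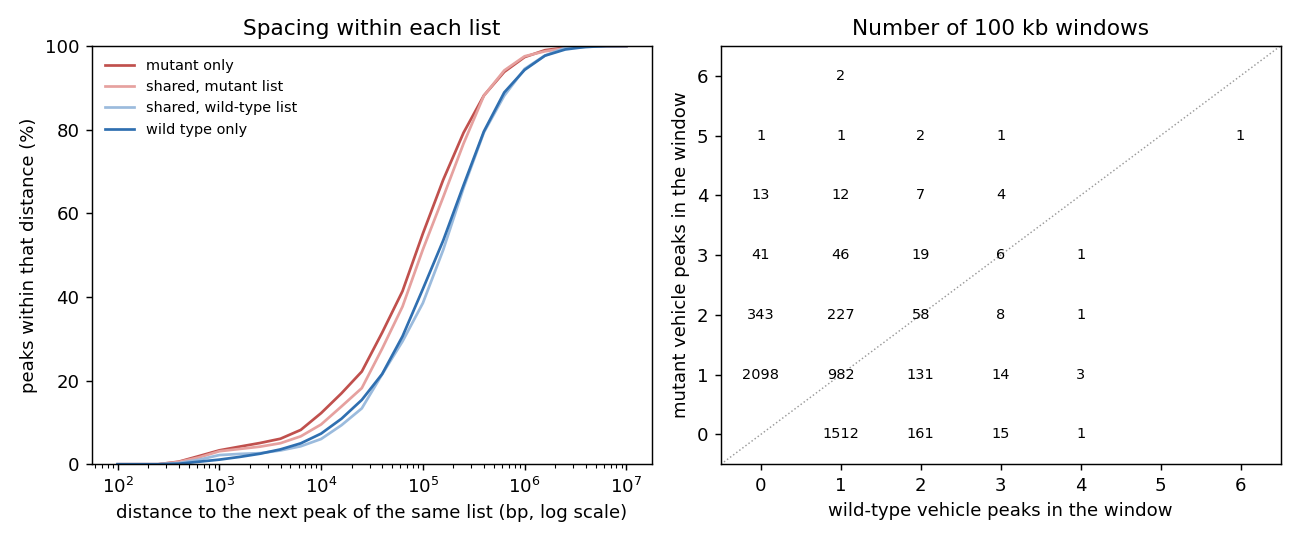
Left, percentage of peaks of each class (y axis) whose next peak of the same list lies within the distance on the x axis (bp, log scale); the mutant curves lie left of the wild-type curves, with medians of 87289 bp for all mutant and 143900 bp for all wild-type peaks. Right, number of 100 kb windows with each combination of wild-type (x axis) and mutant (y axis) vehicle peaks, windows without a vehicle peak left out; numbers above the dotted line are windows with more mutant peaks, and 982 windows held 1 peak of each list.

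Windows of 100 kb, laid end to end, were used to find stretches where the genotypes parted. Of the 5711 windows with a vehicle peak, 2496 held mutant peaks only, 1689 wild-type peaks only and 1526 both. In 491 of the windows with both, no peak was shared. The mutant exceeded the wild type by at least 2 peaks in 469 windows, 8.21% of those with a vehicle peak, and the wild type exceeded the mutant by at least 2 in 195 windows, 3.41%. The mutant list is longer, with 5027 against 3712 peaks, which by itself gives more windows with a mutant excess. These window counts were not adjusted for list length.

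Windows with vehicle binding in both genotypes also held the most ligand peaks. They had on average 4.77 mutant ICI peaks, 4.05 mutant tamoxifen peaks, 2.85 wild-type ICI peaks and 3.83 wild-type tamoxifen peaks. Windows with mutant vehicle peaks only had 3.91, 3.26, 2.04 and 2.69, and windows with wild-type vehicle peaks only 3.76, 3.03, 2.59 and 3.57, in the same order. Windows with a ligand peak but no vehicle peak had 2.15, 1.64, 1.22 and 1.80.

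The largest mutant excess, 5 peaks, was reached in 3 windows. On chromosome 10 at 59600001 to 59700000 the mutant had 5 peaks and the wild type 0. Of these mutant peaks, those at 59663883 to 59664082 and 59666556 to 59666755 were in all 4 ligand lists, that at 59682005 to 59682204 was in both mutant ligand lists only, and that at 59656539 to 59656738 was in 0. On chromosome 11 at 35000001 to 35100000 the mutant had 6 peaks. The wild type had 1, at 35092001 to 35092200, whose midpoint was 69 bp from that of the last mutant peak. On chromosome X at 96600001 to 96700000 the mutant also had 6 peaks and the wild type 1. That wild-type peak, at 96611049 to 96611248, was in all 4 ligand lists but lay 4720 bp from the nearest mutant vehicle peak, and 2 of the 6 mutant peaks were in 0 ligand lists.

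The largest wild-type excess was on chromosome 2 at 154500001 to 154600000, with 4 wild-type peaks and 0 mutant peaks. The wild-type peaks at 154542443 to 154542642, 154549374 to 154549573 and 154564409 to 154564608 were each in all 4 ligand lists, so that mutant ERα was called there after ligand. The fourth, at 154575524 to 154575723, was called in both wild-type ligand lists and in neither mutant one. On chromosome 1, the windows at 36600001 to 36700000 and 161700001 to 161800000, of 18 tied with an excess of 3, had 3 wild-type peaks and 0 mutant peaks each. In the first, 1 wild-type peak was in all 4 ligand lists, and so was 1 in the other.

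Shared binding was densest on chromosome 5 at 120000001 to 120100000, with 5 shared sites among 5 mutant and 6 wild-type peaks. The midpoints of these pairs were 44, 101, 55, 41 and 64 bp apart. Of the 5 sites, 4 were in all 4 ligand lists, and that at 120075652 to 120075851 in the wild type was called with both mutant ligands and with neither wild-type ligand. The only unshared peak of the window, in the wild type at 120047877 to 120048076, was 402 bp from a mutant peak. On chromosome 17 at 25900001 to 26000000, 3 sites were shared with midpoints 10, 2 and 183 bp apart. The pair 2 bp apart, at 25945873 to 25946072 in the mutant, was again called with both mutant ligands only. The pair 183 bp apart was the only one of the 3 called with wild-type ICI. On chromosome 1 at 55100001 to 55200000, which is 1 of 52 windows with 2 shared sites, the pair at 55144748 to 55144947 in the mutant was 1 bp apart and was called in every ligand list except wild-type ICI.

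Other dense windows mixed the classes. On chromosome 1 at 75300001 to 75400000 the mutant had 5 peaks and the wild type 3, of which 2 were shared. The shared site at 75314490 to 75314689 in the mutant was in all 4 ligand lists, and that at 75371556 to 75371755 was in both mutant ligand lists only. The window from 124400001 to 124500000 on chromosome 5 held 4 wild-type peaks and 1 mutant peak. The shared site there, at 124424141 to 124424340 in the wild type, was called in 1 ligand list (mutant tamoxifen), whereas the 3 wild-type-only peaks were each in all 4.

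At the scale of 1 Mb, a few stretches held calls of 1 genotype and few or none of the other. These were chosen after their values were seen, as extremes of 1570 windows of 1 Mb with at least 2 vehicle peaks. In the window from 69000001 to 70000000 on chromosome 6, the wild-type vehicle, ICI and tamoxifen lists held 5, 7 and 18 peaks, and each of the 3 mutant lists held 0. The wild-type vehicle peaks at 69106252 to 69106451, 69134952 to 69135151 and 69147676 to 69147875 were each called with both wild-type ligands. The stretch without a mutant peak ran from 67251321 to 70659706, which is 3.41 Mb, and held 37 wild-type peaks in all. No other stretch without a mutant peak on the 20 chromosomes held as many. Positions alone cannot tell a stretch without bound receptor from one whose sequence differs or is missing in the mutant animals, and neither was tested. Next in number of wild-type peaks was a stretch of 2468 kb with 21 on chromosome 16, where the window at 40000001 to 41000000 had 2 wild-type vehicle peaks. Of the 1570 windows, these 2 windows had 0 peaks in all mutant lists, and 0 windows had none in all wild-type lists. Stretches without a wild-type peak did occur across window borders. Those with the most mutant peaks held 25 in 1018 kb on chromosome 15, between midpoints at 4028160 and 5046095, and 25 in 509.5 kb on chromosome 3, between 120079015 and 120588540.

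In the other direction, chromosome 15 at 4000001 to 5000000 held 2 mutant vehicle peaks, 11 mutant ICI and 11 mutant tamoxifen peaks. The wild-type lists held 0, 1 and 1 there. On chromosome 12 at 38000001 to 39000000 the mutant had 3, 7 and 9 peaks with vehicle, ICI and tamoxifen, and the wild type 0, 0 and 2. Chromosome 13 at 50000001 to 51000000 went toward the wild type, with 3, 7 and 25 peaks against 0, 4 and 2 in the mutant.

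Placement by chromosome was similar in the genotypes apart from chromosome 3. Mutant peaks made up 57.5% of the peaks of both lists (56.5 to 58.6) and outnumbered wild-type peaks on 19 of 20 chromosomes. Chromosome 3 was the exception, with 198 mutant and 204 wild-type peaks, a mutant share of 49.3% (44.3 to 54.3). It was also the only chromosome of the 20 whose interval left out the overall share, and intervals at this level leave it out now and then by counting error alone. The highest share was on chromosome 11, at 61.5% (57.3 to 65.5), with 354 mutant and 222 wild-type peaks.

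Shared peaks are pairs, so any difference in number lies in the unshared sites by construction. Chromosome 3 held 5.88% of wild-type-only sites (5.01 to 6.85) and 3.76% of mutant-only sites (3.19 to 4.40), with 4.57% of shared sites (3.41 to 5.99). Chromosome 11 held 7.02% of mutant-only sites (6.24 to 7.86) and 5.50% of wild-type-only sites (4.66 to 6.44). The X chromosome held 2.75% (2.26 to 3.31) and 2.25% (1.72 to 2.90), and 3.02% of shared sites (2.09 to 4.21). The share of wild-type peaks that were shared ranged from 23.2% on chromosome 10 (17.2 to 30.1) to 35.9% on the X chromosome (26.1 to 46.5), and these intervals overlap.

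**Figure D5:**
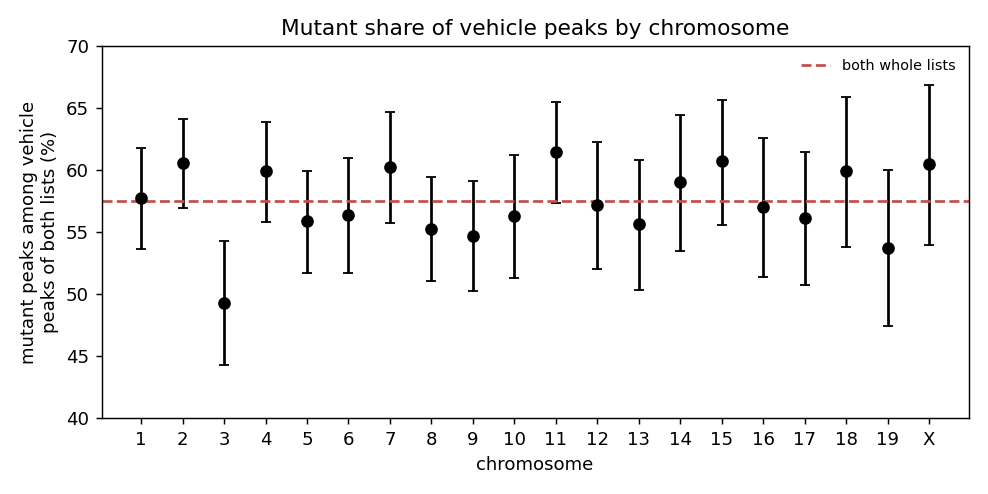
Mutant peaks as a percentage of the vehicle peaks of both lists (y axis, from 40 to 70%) on each chromosome (x axis), with exact 95% intervals for counting error; the dashed line is the share over both whole lists, 57.5%. Chromosome 3, at 49.3%, is the only chromosome whose interval does not reach the line.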

How the data were processed

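ERα ChIP-seq peak lists of 6 libraries were used, each from pooled uteri of 6 mice. The authors deposited a chromosome, start and end per peak, with no score; the build was mm9, and the tools were HOMER 4.10.3, Bowtie2 2.1.0, bedtools 2.24.0, Picard and SAMtools, per the submitters' processing notes. Peak threshold, input use and depth, not given in the sources used here, can each change how many peaks a list holds. Overlaps (minimum 1 bp), midpoint distances, runs (gap up to 10 kb) and 100 kb windows were computed with pandas 2.3.3, numpy 2.4.6 and scipy 1.17.1 under Python 3.11.15. Both overlap counts were checked against bedtools 2.31.1, with a difference of 0, and on simulated lists. The members and rules were chosen with earlier results of these data known. Named sites are the 3 windows with most mutant, wild-type or shared peaks and the largest excesses, the 3 longest runs per list and the 3 closest unshared pairs, ties by position. Megabase stretches were chosen after their values were seen. Gene placement and motifs, planned for an mm9 annotation and sequence, were not analysed here. Alternatives were other overlaps, limits, windows, chromosomes 1 to 19, merged peaks, equal list length and peaks with ligand support.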

Additional observations from a re-analysis of the deposited data

Results flagged for a closer look

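The share of wild-type-only sites called moved in opposite directions from ICI to tamoxifen in the genotypes. It moved by -2.02 percentage points in the mutant lists, where the intervals overlapped, and by 5.77 in the wild-type lists. List length moved in the same directions, from 45837 to 36538 peaks in the mutant and from 26482 to 37327 in the wild type. The shares were not adjusted for list length. The log2 ratio of mutant to wild-type peak number was 0.44 with vehicle and -0.031 with tamoxifen, beside 0.79 with ICI. Each value comes from 1 library per group, and neither difference was tested.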

How the results depend on the processing

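No paired analysis was possible because each genotype had 1 vehicle library, and for the same reason no library could be left out of the vehicle comparison. Of 87 alternative values, 42 stayed within the counting interval (for counts, within 1.5 times) and 45 moved. Every value on chromosomes 1 to 19 stayed. The numbers of mutant-only and wild-type-only peaks also stayed, but the wide limit decides little for them. The lists hold 5027 and 3712 peaks, so neither number could pass the limit upward. Among peaks with a ligand peak in the same genotype, mutant-only peaks fell from 3934 to 2736 and wild-type-only peaks from 2619 to 2279. The shared percentage of wild-type and of mutant peaks was 29.4 and 21.7 under the main rule. It was 27.8 and 20.5 with an overlap of 100 bp, and 23.8 and 17.6 with 150 bp. With midpoints within 1000 bp it was 31.3 and 23.4, and within 5000 bp 33.2 and 25.04. For the wild type it was 25.4 among peaks with a ligand peak in the same genotype, and 21.7 (expected) with the mutant list thinned to equal length. The last value equals the main mutant percentage by arithmetic, so it adds no information.

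Calls in the ligand lists are given in the order mutant ICI, mutant tamoxifen, wild-type ICI, wild-type tamoxifen. With an overlap of 100 bp the percentages were 49.2, 50.4, 23.7 and 32.0 for mutant-only, 75.2, 76.3, 38.8 and 67.2 for shared, and 73.8, 71.5, 72.5 and 80.1 for wild-type-only sites. With midpoints within 500 bp they were 62.1, 62.5, 38.0 and 41.8, then 85.4, 85.5, 54.1 and 75.1, then 79.5, 76.7, 80.2 and 84.6. The order of the classes within each list was the same under both, but some gaps narrowed. With mutant ICI, shared and wild-type-only sites stood at 81.2 and 75.8 under the main rule. With an overlap of 100 bp they stood at 75.2 and 73.8, and no intervals were computed for these alternatives. Without the wild-type ICI list, 29.8% of mutant-only, 64.3% of shared and 68.7% of wild-type-only sites were in every remaining list. Genotype-restricted sites, by the unlike criteria given above, were then 17.5% of the mutant-only and 6.41% of the wild-type-only class. This alternative was chosen after seeing the data.

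Peaks with a neighbour within 5 kb made up 6.58% of the mutant and 3.83% of the wild-type list, and within 20 kb 18.6% and 12.8%. The mutant share at 10 kb was 8.84% with equal list length, an alternative also added after seeing the data. With 50 kb windows, 127 had a wild-type excess of at least 2. Without peak heights, thresholds could not be varied, and the alternatives that need an mm9 annotation or sequence were not run.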
